A study of Homo sapiens with 3 samples.

Results

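HA-TFE3 binding was examined at 10 genes of the NRF2 pathway and of iron handling: NFE2L2, KEAP1, GCLC, GCLM, SLC7A11, TXNRD1, SRXN1, NQO1, HMOX1 and FTH1. Each locus was taken as the gene's span on hg19, given to the nearest kb, with 5 kb added on either side, 571 kb in all. The loci held 43 binding summits of replicate 1, of 62287 in that library, and 49 of replicate 2, of 72647. A summit is the single base at which a bound region peaks, and a region may carry several. A summit of replicate 1 and a summit of replicate 2 were called a shared summit where neither had a closer counterpart and the distance was at most 100 bp. The loci held 33 of the 47396 shared summits of the genome.

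The data are chromatin immunoprecipitation with sequencing (ChIP-seq) of HK-2 cells, an established line from human kidney proximal tubule epithelium. They carried an introduced, doxycycline-inducible TFE3 with an HA tag, and the tag was the target of the precipitation. Signal specific to the tag is therefore that of the introduced protein. The series holds 2 ChIP libraries and 1 input DNA library. All libraries came from cells kept in 1.5% fetal calf serum. The protocol names 24 h with or without doxycycline at 0.2 µg/ml, and the labels do not say which libraries were induced, nor how many clones the line comprises. Separate cultures are not stated for the ChIP libraries, and differences between them may be only technical. The input was not analysed here, and no uninduced or mock precipitation was compared, so the background at these loci was not measured. Sequencing depth is unknown, because the lists hold no read counts.

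NRF2, the product of NFE2L2, is a basic leucine zipper transcription factor that pairs with small MAF proteins on antioxidant response elements. KEAP1, an adaptor of a cullin ubiquitin ligase, keeps NRF2 low until oxidants or electrophiles modify it. NRF2 targets include enzymes of glutathione and thioredoxin metabolism, quinone and heme detoxification, and ferritin. TFE3 belongs to the MiT/TFE family, whose members bind E-boxes in lysosomal and autophagy genes.

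All 10 loci carried at least 1 shared summit. Over the genome, windows as long as each locus held at least 1 shared summit in 18.9% (the length of the SRXN1 locus) to 58.3% of cases (the length of the TXNRD1 locus). These windows tile whole chromosomes, including stretches without genes and stretches that cannot be mapped. Other genes were not compared, so the figures do not tell these genes from genes in general. The loci held 57.8 shared summits per Mb (95% exact Poisson interval 39.8 to 81.2), against 15.6 per Mb over chromosomes 1 to 22 and X, a ratio of 3.70. Counting all summits and dividing by the genome average of the same library, the loci stood at 3.67 in replicate 1 and 3.59 in replicate 2, or 3.63 ± 0.06 (SD, n = 2). This SD is between lists over the same loci and does not hold the variation between loci. The pooled ratio rests largely on TXNRD1, NFE2L2 and FTH1, which held 11, 7 and 4 of the 33 shared summits. Taken singly, 7 of the 10 loci had an interval of the shared density that included the genome average. Neighbouring summits are not independent, and the intervals cover counting error only.

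**Figure D1:**
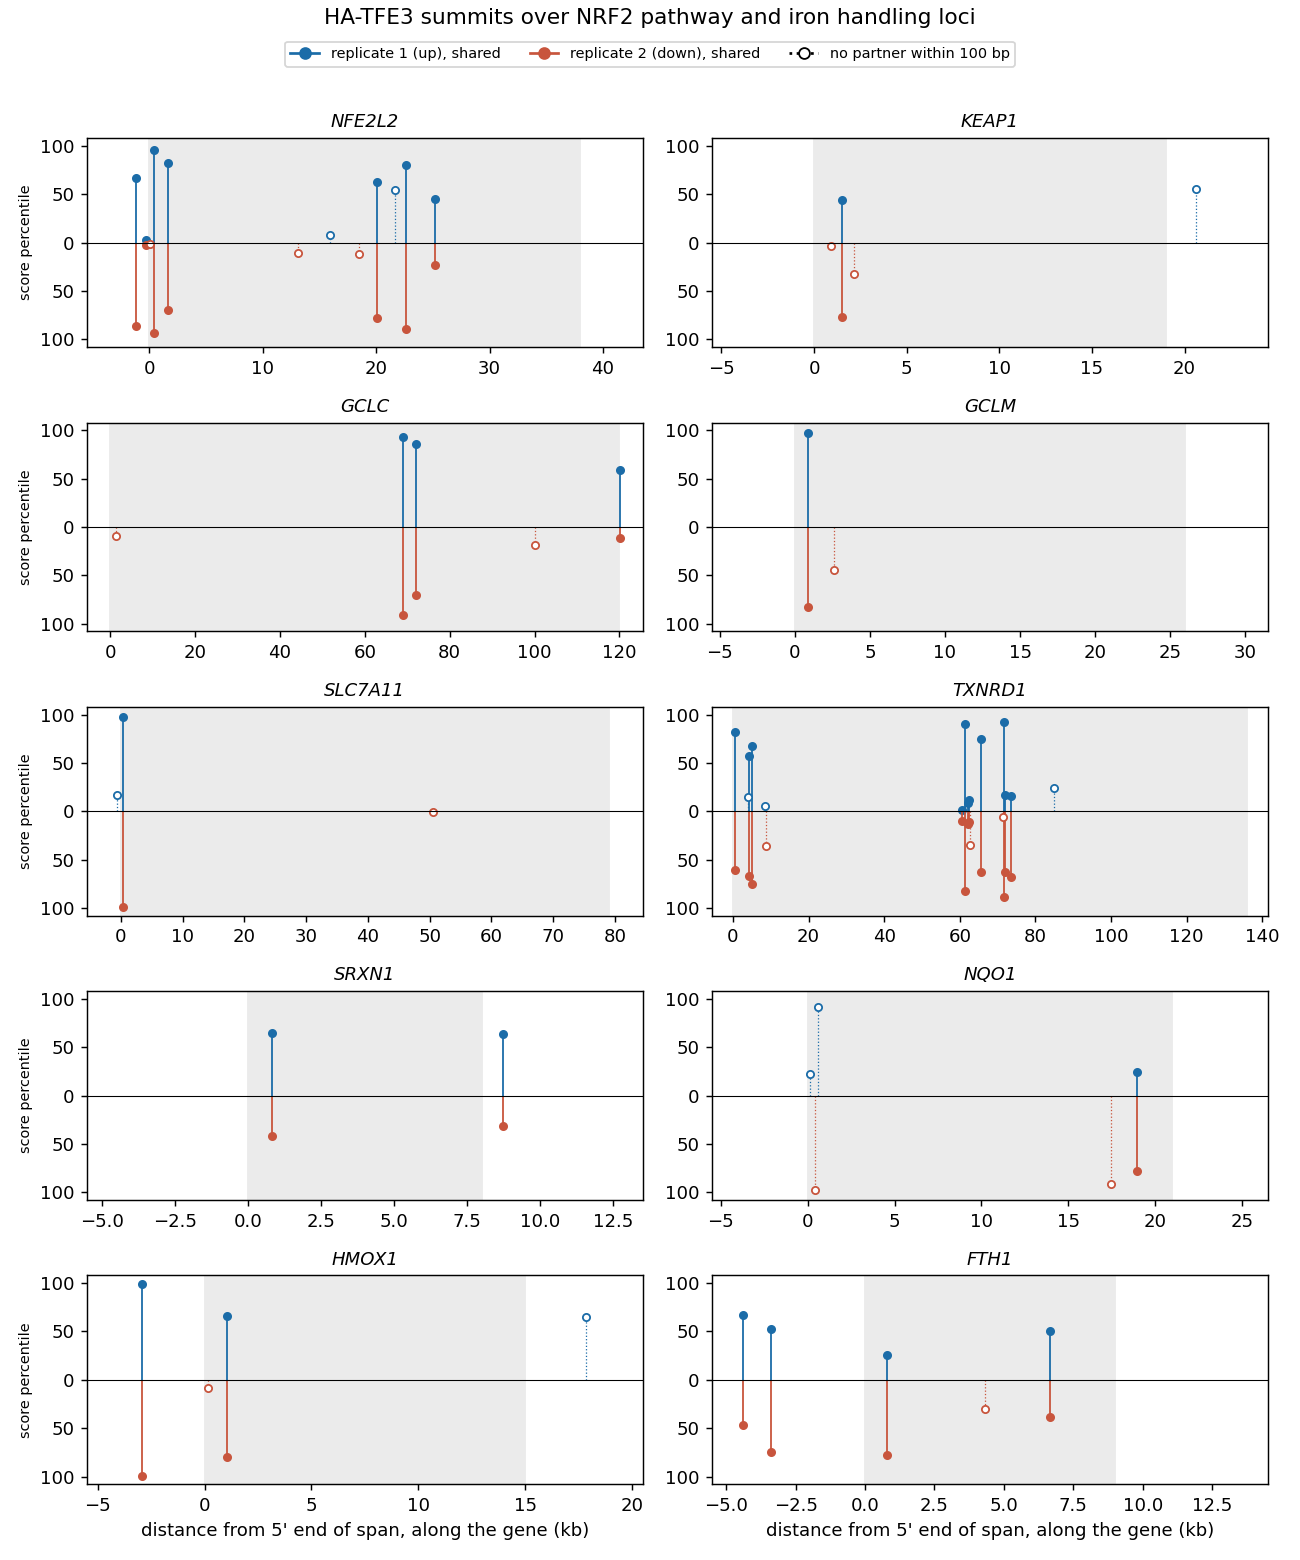
Summits along the 10 loci, with the distance from the 5′ end of the gene span on the x axis (kb, along the gene's strand) and the score percentile within the library on the y axis, replicate 1 upward and replicate 2 downward; filled points are shared summits, open points have no partner within 100 bp, and grey marks the span. KEAP1, GCLM and SLC7A11 each show 1 shared summit, near the 5′ end of the span, and TXNRD1 shows 8 between 60.54 and 73.60 kb; the 120 kb span of GCLC is longer than its RefSeq record of 47.8 kb, so its 5′ end is not the start of that record.

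The 5′ ends held 16 of the 33 shared summits when 5 kb were taken on either side of each 5′ end, 48.5% of them (95% exact binomial interval 30.8 to 66.5) on 17.5% of the length. The density there was 160.0 shared summits per Mb (91.5 to 260), against 35.6 (19.9 to 58.8) in the rest of the spans, where 15 shared summits lay. The 3′ flanks held 2, with an interval of 4.84 to 144 per Mb. Stretches at the 5′ ends of the spans were populated in 8 of the 10 genes, and those of GCLC and NQO1 held no shared summit. Within 1 kb of the 5′ end, 6 genes had a shared summit. The 5′ ends of other genes were not counted, so neither count tells these genes from genes in general. The 5′ ends are those of the spans, which are given to the nearest kb and need not be the start that the RefSeq record uses. For GCLC the span is 120 kb against a RefSeq record of 47.8 kb in GRCh38.p14, so the absence of a shared summit at its 5′ end says nothing of the RefSeq start. For FTH1 the span is 9 kb against a record of 3.4 kb.

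**Figure D2:**
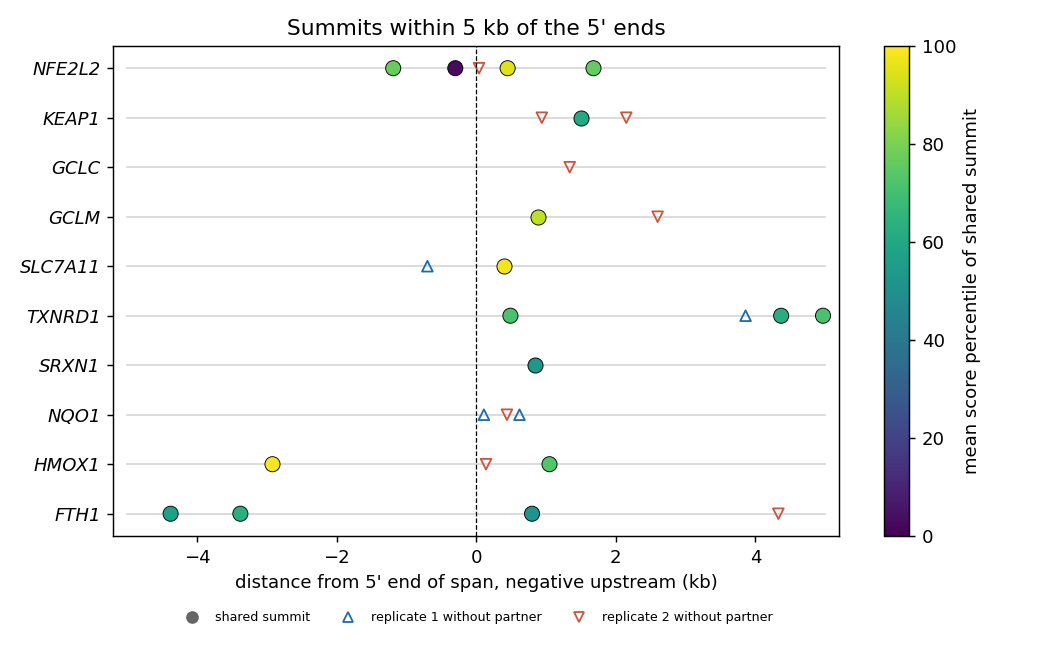
Summits within 5 kb of the 5′ end of each span, with distance in kb on the x axis (negative upstream) and genes on the y axis; circles are shared summits coloured by the mean of their score percentiles in both libraries, and triangles are summits of 1 library without a partner. HMOX1 has its highest-ranked shared summit upstream, at -2.92 kb, whereas those of NFE2L2, SLC7A11 and GCLM lie at 0.45, 0.40 and 0.89 kb; NQO1 shows only summits without a partner.

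NFE2L2, the gene of NRF2 itself (kb 178092 to 178130 of chromosome 2, minus strand, band 2q31.2), held 9 summits in replicate 1 and 10 in replicate 2, of which 7 were shared. That is 146 shared summits per Mb (58.6 to 300.5), or 9.34 times the genome average, and 0.754% of genome windows of 48 kb held at least 7 (35.8% held at least 1). The shared summits formed a group of 4 over 2.87 kb around the 5′ end and a group of 3 between 20.11 and 25.20 kb into the gene. Scores are values the authors gave, on a scale that is not stated, and serve here only to rank summits within a library; a percentile of 100 is the top of its list. The highest-ranked shared summit, at base 178129557 in replicate 1, lay 12 bp from its partner and scored 33.6 in replicate 1 (percentile 95.6) and 31.3 in replicate 2 (percentile 93.5). Its neighbours at 1.68 and -1.19 kb stood at percentiles 82.1 and 67.4 in replicate 1, and at 70.1 and 86.4 in replicate 2. The fourth of this group, at -0.30 kb, ranked near the bottom of both lists, at percentiles 3.02 and 2.83. Of the group inside the gene, the summit at 22.64 kb ranked highest, at percentiles 80.3 and 89.2. So the highest-ranked and the lowest-ranked shared summit of NFE2L2 lay within 1 kb of each other, near the 5′ end of the span.

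KEAP1 (kb 10596 to 10615 of chromosome 19, minus strand, band 19p13.2), the inhibitor of NRF2, held 1 shared summit. It lay at base 10613485 in replicate 1, 1.50 kb inside the 5′ end, and scored 7.67 in replicate 1 (percentile 44.1) and 16.6 in replicate 2 (percentile 77.1). In replicate 2 it had a summit to either side without a partner, at 0.94 and 2.15 kb, with percentiles of 3.89 and 32.6. A summit of replicate 1 without a partner lay in the 3′ flank. The shared density of KEAP1 had an interval of 0.873 to 192 per Mb, which includes the genome average of 15.6, and 26.3% of genome windows of 29 kb held at least 1.

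The next genes supply glutathione. GCLC, the catalytic subunit of glutamate-cysteine ligase (kb 53362 to 53482 of chromosome 6, minus strand, band 6p12.1), held 3 shared summits over 130 kb, and 29.1% of genome windows of that length held at least 3 (56.2% held at least 1). The strongest, at base 53412977 in replicate 1, scored 28.7 in replicate 1 (percentile 93.1) and 28.2 in replicate 2 (percentile 91.6). The next lay 47.95 kb from the 3′ end of the span and stood at percentiles 86.1 and 69.97. The third, 0.22 kb past the 3′ end, differed between the libraries, with percentiles of 59.4 and 11.0. Near the 5′ end of the 120 kb span there was only a summit of replicate 2 at percentile 9.84. The distance of 47.95 kb between the second of these summits and the 3′ end of the span is close to the length of the RefSeq record, 47.8 kb, but builds were not converted, and whether a summit lies at the RefSeq start was not tested.

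GCLM, the modifier subunit of the same enzyme (kb 94350 to 94376 of chromosome 1, minus strand, band 1p22.1), held 1 shared summit, and 30.2% of genome windows of 36 kb held at least 1. It lay at base 94375129 in replicate 1, 0.89 kb inside the 5′ end. It scored 37.2 in replicate 1 (percentile 97.0) and 20.2 in replicate 2 (percentile 83.0), so it ranked higher in replicate 1. A summit of replicate 2 alone lay at 2.60 kb, at percentile 44.2.

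SLC7A11 encodes xCT, the cystine importer that feeds glutathione synthesis (kb 139085 to 139164 of chromosome 4, minus strand, band 4q28.3). It held 1 shared summit over 89 kb, 0.720 times the genome average per length (interval 0.018 to 4.01), and 48.6% of genome windows of this length held at least 1. That summit was among the strongest of the 10 loci. At base 139163586 in replicate 1, 0.40 kb inside the 5′ end, it scored 37.4 in replicate 1 (percentile 97.0) and 49.9 in replicate 2 (percentile 98.8). The other summits of the locus, 1 in each library, had no partner and ranked at percentile 16.7 in replicate 1 and 0.475 in replicate 2.

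TXNRD1 encodes thioredoxin reductase 1, which keeps thioredoxin reduced (kb 104609 to 104745 of chromosome 12, plus strand, band 12q23.3). With 11 shared summits and 14 summits in each library it had the most of the 10 loci, on the longest window. Its shared density was 75.3 per Mb (37.6 to 135), or 4.83 times the genome average, and 3.33% of genome windows of 146 kb held at least 11. The summits fell in separate groups: 3 shared summits between 0.49 and 4.97 kb, then none for 55.6 kb, then 8 between 60.54 and 73.60 kb. The highest-ranked, at base 104680686 in replicate 1 and 71.68 kb from the 5′ end, scored 26.9 in replicate 1 (percentile 91.8) and 24.8 in replicate 2 (percentile 88.7). Another at 61.49 kb stood at percentiles 90.2 and 82.7. The summit nearest the 5′ end stood lower, at 82.1 and 60.3. Of the 4 shared summits of all loci with a mean percentile under 20, 3 lay in the group at 60.54 to 73.60 kb, within 1 kb of the summit at 61.49 kb. RefSeq gives TXNRD1 a pair of starts that lie 71.3 kb apart in GRCh38.p14. Whether the summits at about 71 kb lie at the second start was not tested. With a pairing limit of 50 bp, TXNRD1 held 7 shared summits.

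SRXN1 encodes sulfiredoxin, which restores overoxidised peroxiredoxins (kb 627 to 635 of chromosome 20, minus strand, band 20p13). It held 2 summits in each library, and all were shared. Of genome windows of 18 kb, 6.14% held at least 2 shared summits. The pair at base 634157 in replicate 1, 0.84 kb inside the 5′ end, scored 11.8 in replicate 1 (percentile 64.9) and 7.19 in replicate 2 (percentile 41.4). The other, 0.71 kb past the 3′ end, stood at percentiles 63.3 and 31.7. These are middle ranks, and both summits ranked higher in replicate 1.

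NQO1 encodes a quinone reductase often used as a readout of NRF2 activity (kb 69740 to 69761 of chromosome 16, minus strand, band 16q22.1). Its 5′ end carried a strong summit in each library that did not meet the pairing limit. In replicate 1 it lay at base 69760383 and scored 26.9 (percentile 91.8), and in replicate 2 it lay at base 69760561 and scored 42.5 (percentile 97.6). They were 178 bp apart and counted as shared at limits of 200 and 500 bp. Replicate 1 had a weaker summit in the same stretch, at 0.11 kb and percentile 22.4. The shared summit of NQO1, in a window length at which 27.5% of the genome's windows held at least 1, lay near the 3′ end, at base 69742058 in replicate 1. It differed in rank between the libraries, scoring 5.65 in replicate 1 (percentile 24.8) and 16.9 in replicate 2 (percentile 77.6). Replicate 2 had a further summit at base 69743564, at percentile 91.9, with none of replicate 1 within 1506 bp.

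HMOX1 encodes heme oxygenase 1, which breaks heme down and releases iron (kb 35776 to 35791 of chromosome 22, plus strand, band 22q12.3). It held 2 shared summits, a count reached by 9.15% of genome windows of 25 kb (23.8% held at least 1), and it carried the highest-ranked shared summit of the 10 loci. At base 35773076 in replicate 1, at -2.92 kb from the 5′ end and 4 bp from its partner, it scored 47.0 in replicate 1 (rank 744 of the list, percentile 98.8) and 60.3 in replicate 2 (rank 289, percentile 99.6). A second, 1.05 kb inside the 5′ end, was weaker, at percentiles 66.1 and 79.3. When the flank was widened to 20 kb, HMOX1 gained 3 shared summits, of which 2 ranked high. The one at -7.89 kb stood at percentiles 98.8 and 94.8, and the one at 20.05 kb, just outside the 5 kb flank on the 3′ side, at 98.5 and 96.7. In RefSeq, MCM5 is the next protein-coding gene on that side, only 5.9 kb past the HMOX1 record. The same widening took NFE2L2 to 11 shared summits. Of the added ones, that at 52.68 kb ranked 56 in replicate 1 and 30 in replicate 2. It lay 14.68 kb past the 3′ end, on the side where RefSeq has HNRNPA3 as the next protein-coding gene, 6.3 kb past the NFE2L2 record. The other summits that NFE2L2 gained had mean percentiles of 26.5, 3.89 and 45.2. To which gene the summits outside the 5 kb flanks belong was not tested.

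FTH1 encodes the heavy chain of ferritin, which stores iron (kb 61727 to 61736 of chromosome 11, minus strand, band 11q12.3). It had the highest density, with 4 shared summits in 19 kb, or 211 per Mb (57.4 to 539) and 13.5 times the genome average, and 0.789% of genome windows of this length held at least 4 (19.6% held at least 1). All summits of replicate 1 in the locus were shared, and 1 of 5 in replicate 2 was not. None reached percentile 90 of either list. The highest mean percentile belonged to the pair at base 61739362 in replicate 1, at -3.38 kb, which scored 8.83 in replicate 1 (percentile 52.5) and 15.4 in replicate 2 (percentile 74.2). The summit 0.80 kb inside the 5′ end differed between the libraries, at percentiles 25.9 and 77.8. With no flank, FTH1 held 2 shared summits and HMOX1 held 1. The FTH1 span of 9 kb is longer than its RefSeq record of 3.4 kb, which BEST1 and LOC399900 overlap. The density is therefore that of the window, and to which gene its summits belong was not tested.

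**Figure D3:**
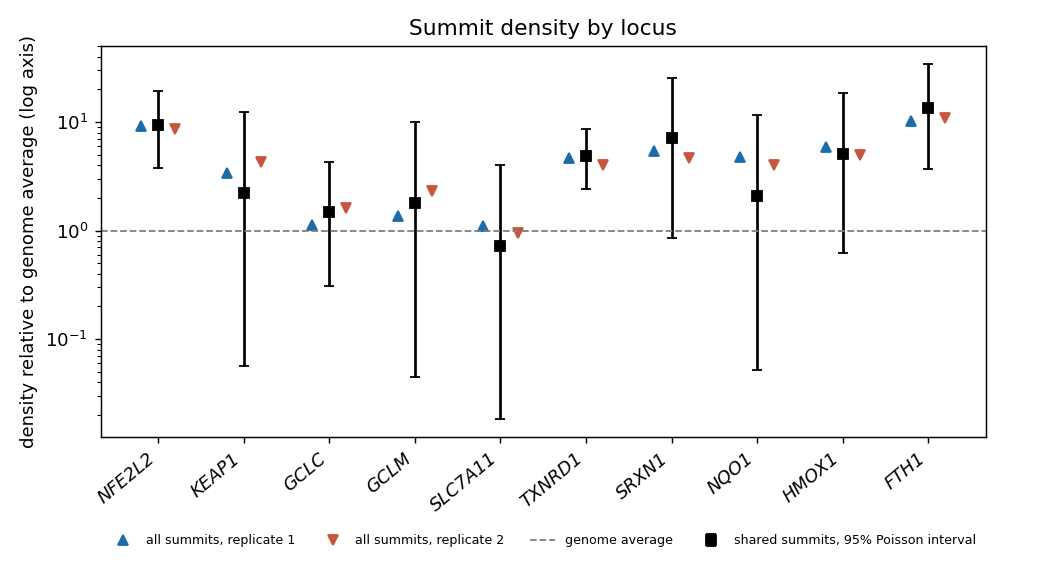
Summit density of each locus relative to the genome average on a log axis, with squares for shared summits and their 95% exact Poisson intervals, and triangles for all summits of replicate 1 and replicate 2; the dashed line is the genome average. The intervals of FTH1, NFE2L2 and TXNRD1 lie above the line, and those of the other 7 genes cross it.

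Density and rank did not follow each other across the genes. FTH1 had the highest density with middle ranks, and SLC7A11 had the lowest density with a summit near the top of both lists. In order of the mean percentile of their best shared summit, the genes ran HMOX1 (99.2), SLC7A11 (97.9), NFE2L2 (94.5), GCLC (92.3), TXNRD1 (90.3), GCLM (90.004), FTH1 (63.4), KEAP1 (60.6), SRXN1 (53.2) and NQO1 (51.2). GCLM stood just inside the limit of 90. The GCLC summit ranked above that of TXNRD1 in both libraries. GCLM cannot be ordered against them, since the libraries placed its summit at 97.0 and 83.0, on either side of the other 2. FTH1, KEAP1, SRXN1 and NQO1 cannot be ordered either, since the libraries lay further apart on each of their summits than these genes lay from each other. With the 178 bp pair of NQO1 left out by the limit, its place in this order rests on the weaker pair near the 3′ end. The order also sets the best of 11 shared summits at TXNRD1 against the only one at KEAP1, GCLM, SLC7A11 and NQO1. A best value tends to rise with the number of summits. The best summits of HMOX1 and FTH1 lay upstream of the span, and the HMOX1 summit inside its span had a mean percentile of 72.7.

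In pairing, the summits of the loci were much like those of the lists they came from. A partner was found for 76.7% of them in replicate 1 (95% exact binomial interval 61.4 to 88.2), against 76.1% of the whole list, and for 67.3% in replicate 2 (52.5 to 80.1), against 65.2%. The median distance between partners was 28 bp, with a range of 1 to 89, against 26 bp over all shared summits. Of the 33 shared summits, 6 had a mean percentile of at least 90, or 18.2% (6.98 to 35.5), against 11.8% of all shared summits. The median percentile of the shared summits was 64.9 in replicate 1 and 70.1 in replicate 2, against 59.1 and 64.3 over all shared summits. For all summits of the loci, shared or not, it was 59.4 in replicate 1 and 60.3 in replicate 2, above the middle of each list. Summits without a partner ranked lower, with medians of 23.1 for 10 summits of replicate 1 and 15.4 for 16 of replicate 2. These values are descriptions, and no test was run on them.

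**Figure D4:**
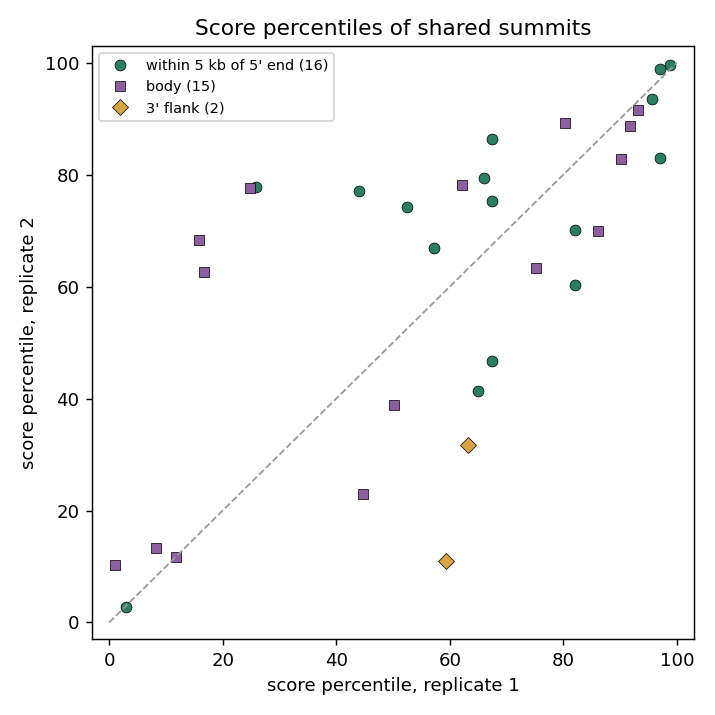
Score percentile of each of the 33 shared summits in replicate 1 (x axis) and replicate 2 (y axis), by place in the locus; the dashed line marks equal percentiles. Genes are not marked. The best shared summits of HMOX1, SLC7A11 and NFE2L2 lie at the upper right, but another of NFE2L2 lies at the lower left (percentiles 3.02 and 2.83). Of the 33, 17 ranked higher in replicate 1.

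Shared summits at 5′ ends had median percentiles of 67.4 in replicate 1 and 76.2 in replicate 2. Those in the rest of the spans had 50.1 and 68.3. The ranges overlapped almost entirely, from 3.02 to 98.8 at 5′ ends and from 0.946 to 93.1 in the rest in replicate 1. Between the libraries, the percentiles of a shared summit differed by a median of 13.2 points, against 11.7 over all shared summits, so many differences between genes in the middle of the lists were within the spread between replicates.

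RefSeq promoters of GRCh38.p14, 250 bases before to 50 after a start, were available for 7 of the 10 genes, as 10 sequences. HMOX1, SLC7A11 and FTH1 had none, so the genes with the highest-ranked shared summits, HMOX1 and SLC7A11, were not searched. They were searched on both strands for CACGTG, the E-box core of lysosomal genes; for CATGTG, a related E-box; for TGACNNNGC, the core of the antioxidant response element; and for TGAGTCA, the AP-1 element. CACGTG was in none of the 10 sequences, against 7.26% of all 35116 promoters, and CATGTG was in none, against 11.1%. TGAGTCA was also in none, against 4.95%. At shares this low, 10 sequences may well hold no match, so these absences do not tell the genes from genes in general. TGACNNNGC was in 4 sequences of 3 genes, GCLM, TXNRD1 and KEAP1, against 13.3% of all promoters. No motif overlapped another. The promoter bases are on another build than the summits, so no summit was placed on them, and a match is a description of the letters only.

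The 250 bases before the start are shown for 1 promoter of each gene with the response element core, so that the matches can be read in their context. Capitals mark TGACNNNGC or its reverse complement. The GCLM promoter is chr1:93909431-93909680 on the minus strand, the second TXNRD1 promoter chr12:104286782-104287031 on the plus strand, and the second KEAP1 promoter chr19:10502772-10503021 on the minus strand, all on GRCh38.p14.
GCLM: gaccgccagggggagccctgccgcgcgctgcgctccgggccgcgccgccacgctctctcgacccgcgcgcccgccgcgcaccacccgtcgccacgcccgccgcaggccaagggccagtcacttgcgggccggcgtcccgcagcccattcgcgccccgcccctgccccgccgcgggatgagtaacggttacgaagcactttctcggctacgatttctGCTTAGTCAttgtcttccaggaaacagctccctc
TXNRD1: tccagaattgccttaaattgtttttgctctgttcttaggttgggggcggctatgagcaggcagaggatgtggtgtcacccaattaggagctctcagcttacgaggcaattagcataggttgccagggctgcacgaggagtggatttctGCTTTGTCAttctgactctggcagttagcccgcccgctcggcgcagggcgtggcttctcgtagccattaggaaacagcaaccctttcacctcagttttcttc
KEAP1: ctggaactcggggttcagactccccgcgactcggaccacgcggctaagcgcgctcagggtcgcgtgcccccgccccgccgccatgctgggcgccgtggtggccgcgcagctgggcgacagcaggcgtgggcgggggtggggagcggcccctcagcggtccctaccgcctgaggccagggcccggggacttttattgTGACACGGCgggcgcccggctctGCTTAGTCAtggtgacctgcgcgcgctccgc
The same 9 bases, GCTTAGTCA, stand in the GCLM and KEAP1 promoters, beginning 34 and 31 bases before the start. TXNRD1 has GCTTTGTCA beginning 102 bases before its second start, and KEAP1 has a further match, TGACACGGC, at 54 bases. The first TXNRD1 promoter, not shown, has TGACTTCGC and GCTCCGTCA, beginning 99 and 8 bases before its start; which of the TXNRD1 promoters to show was chosen after the letters were seen.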

How the data were processed

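Each of 2 HA-TFE3 ChIP-seq libraries of HK-2 cells came as 1 bp summits with a name and a score, as the authors deposited them. Per the submitters' processing notes the build is hg19. Aligner, peak caller, thresholds and any use of the input: not given in the sources used here. Positions were read as 1-based, and chromosomes 1 to 22 and X were kept.

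Percentiles rank the summits within a library. Chromosome lengths were the hg19 band ends in circlize 0.4.16. Genome windows of each locus length were laid end to end. Shares carry exact (Clopper-Pearson) and densities exact Poisson intervals, at 95%. The code for pairing and locus counting was run on simulated data: 99.9% of 45000 shared summits and 100% of 50 planted pairs were recovered. The simulated partners all lay well within the 100 bp limit, so high recovery was built in and only the code was checked. False pairs and clustered summits were not simulated, so the choice of limit was not tested. Python 3.11.15, NumPy 2.4.6, pandas 2.3.3, SciPy 1.17.1 and matplotlib 3.10.9 were used.

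The members, lists and tests were chosen with earlier results of these data known. All 10 genes are named. Summits are given with positions where they are the highest-ranked shared summit of a locus, where their mean percentile is at least 90, or where they lack a partner and reach percentile 75. Other summits were added after their values were seen. No hg19 annotation or genome was used here, so a wider pathway list and the sequence at summits were not analysed. Alternatives were pairing limits of 50, 200 and 500 bp, no flank, 20 kb flanks, summits above the median score, the 10000 highest-scoring summits, each library alone, and 2 kb around 5′ ends.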

Additional observations from a re-analysis of the deposited data

How the results depend on the processing

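All 10 loci had a shared summit under each pairing limit and flank run, and a summit in each library alone. When summits had to score above their library's median, there were 18 shared summits in 7 loci. Among the 10000 highest-scoring summits there were 5 in 5 loci, and 55.6% of the replicate 1 summits there had a partner. Such a partner also had to be among the 10000 of its own library. The share over all of the 10000 is not given here, so 55.6% cannot be read as particular to these loci. The density relative to the genome average, 3.70, was 3.96 at 50 bp, 3.61 at 200 bp, 3.54 with no flank, 3.16 with 20 kb flanks, 4.03 above the median score and 3.94 in the top 10000, each further from 3.70 than the SD between libraries (0.06). The median percentile of all locus summits, 59.8 as the mean of both libraries, was 51.6 with 20 kb flanks. Leaving out each replicate in turn gave 43 and 49 summits, 3.59 to 3.67 times the genome average, 46.5% to 46.9% within 5 kb of 5′ ends, and a median percentile of 59.4 to 60.3. At 2 kb, 33.3% of shared summits lay around 5′ ends. No paired analysis was possible because there is 1 ChIP group. Single genes rest on few summits: NQO1, SRXN1 and KEAP1 held 0 shared summits above the median score. Depth is unknown, so a stretch without a summit is not shown to lack binding.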
